A study of Mus musculus with 28 samples.

Results

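A set of genes of thyroid hormone handling are described here in single Müller glial cells (MGCs) of degenerating and wild-type (WT) mouse retina. They are Crym, Dio2, Thra and Thrb, 4 of the 18194 genes that the arrays measured with probe sets of a single gene symbol. The genes were chosen with their signals in these cells already known, for the levels by condition and for the cell-to-cell range of Crym in adult WT cells, so those levels are given as a description and carry no test.

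Thyroid hormone circulates mostly as thyroxine and enters cells through membrane transporters. Inside the cell the type 2 deiodinase, encoded by Dio2, removes an iodine from thyroxine and so makes triiodothyronine, the form that binds the nuclear receptors. These receptors are encoded by Thra and Thrb, sit on DNA mostly as partners of retinoid X receptors, and exchange corepressors for coactivators when hormone is bound. Crym encodes mu-crystallin, a cytosolic protein that binds triiodothyronine in the presence of NADPH and that also reduces cyclic ketimines. In the brain, glial cells are the main site of Dio2, and in the retina the hormone is best known for acting through Thrb on the opsin choice of cones.

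Each cell was picked by its shape from papain-dissociated retina, and its amplified cDNA was hybridized to 1 array. The Rhod-ko mice, on a C57/BL6 background, are deleted for rhodopsin, with 5 cells taken at 8 weeks and 5 at 25 weeks, the times of rod and of cone loss in that model. The rd1 mice, of the FVB strain, carry a mutation in the beta subunit of the rod cGMP phosphodiesterase, and gave 4 cells at 5 weeks and 5 cells at postnatal day 13 (P13). The references were 5 adult WT cells of C57/BL6 mice for the Rhod-ko cells and for rd1 at 5 weeks, and 3 cells of congenic FVB mice (FVB.129P2-Pde6b+Tyrc-ch/AntJ) at P13 for rd1 at P13. The adult WT mice are labelled as older than 25 weeks, but the study's text sets a lower age limit, so their age stays uncertain and differed from that of the 8-week and 5-week mice if the labels hold. The adult WT cells came from an earlier profiling project of the same laboratory, so genotype and profiling occasion cannot be told apart in those comparisons, and for rd1 at 5 weeks the strain differed as well. No animal was named for any cell, so the cells of a condition count together as 1 sample and the conditions were not tested against each other.

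The signals are MAS 5.0 intensities that the authors scaled to the same trimmed mean on every array. Signals of 2000 or more were counted as on. The arrays of cells A5 and A6 from 5-week rd1 retina agreed far more closely than any other pair, with 98.9% of 5554 probe sets within 2-fold (at most 46.0% for the 377 other pairs), and were averaged to 1 cell, which leaves 27 cells. The 2 arrays gave Crym signals of 43162 and 55590, a 1.29-fold gap, and Thra signals of 15705 and 15875.

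The filament gene Vim was on in every cell, at 17627 to 111666. Of 17 MGC markers, 12 to 17 were on in 22 cells, with 0 to 4 of 13 vascular markers. The 3 congenic FVB cells and cells A1 and B1 of rd1 at P13 went against their label, with 3 to 6 MGC markers and 8 to 10 vascular markers on, and the endothelial tight junction gene Cldn5 at 23455 to 29446. All 3 reference cells at P13 are among these, so the P13 signals of Crym, Thra and Dio2 are also given by marker class. Cell 7 of Rhod-ko at 8 weeks had 6 of 12 microglia markers on, Csf1r among them at 118151.

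Crym was on in 23 of the 27 cells (85.2%, exact 95% interval 66.3 to 95.8%, which like the other intervals covers counting error only). Of all genes, 1.85% were on in as many cells. In Rhod-ko at 8 weeks the signals of the single Crym probe set (1416776_at) were 141445, 141246, 176966, 132219 and 82583 in cells 2, 1, 3, 7 and 8. In Rhod-ko at 25 weeks they were 34905, 16581, 39687, 28029.6 and 29211 in cells A1 to A5. In rd1 at 5 weeks they were 20236, 49376, 18437 and 74619.7 in cells A1, A5/A6, B1 and A8.

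The adult WT cells fell far apart. Crym was at 92349.6 in cell MG3 and 21873 in cell MG15, but at 175.7 in MG1, 142.9 in MG22 and 4 in MG16. Thus 2 of 5 adult WT cells were on (40%, interval 5.27 to 85.3%). In Rhod-ko all 5 cells were on at 8 weeks and all 5 at 25 weeks (interval 47.8 to 100% for each). All 4 cells of rd1 at 5 weeks were on too (interval 39.8 to 100%). Each of these intervals overlaps that of adult WT. At P13 the rd1 cells B4, A4, A1, B3 and B1 gave 26889, 27531, 2150.5, 34943 and 6224.6, against 2127.8, 8202.8 and 34 in congenic FVB cells A3, A4 and A5.

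**Figure D1:**
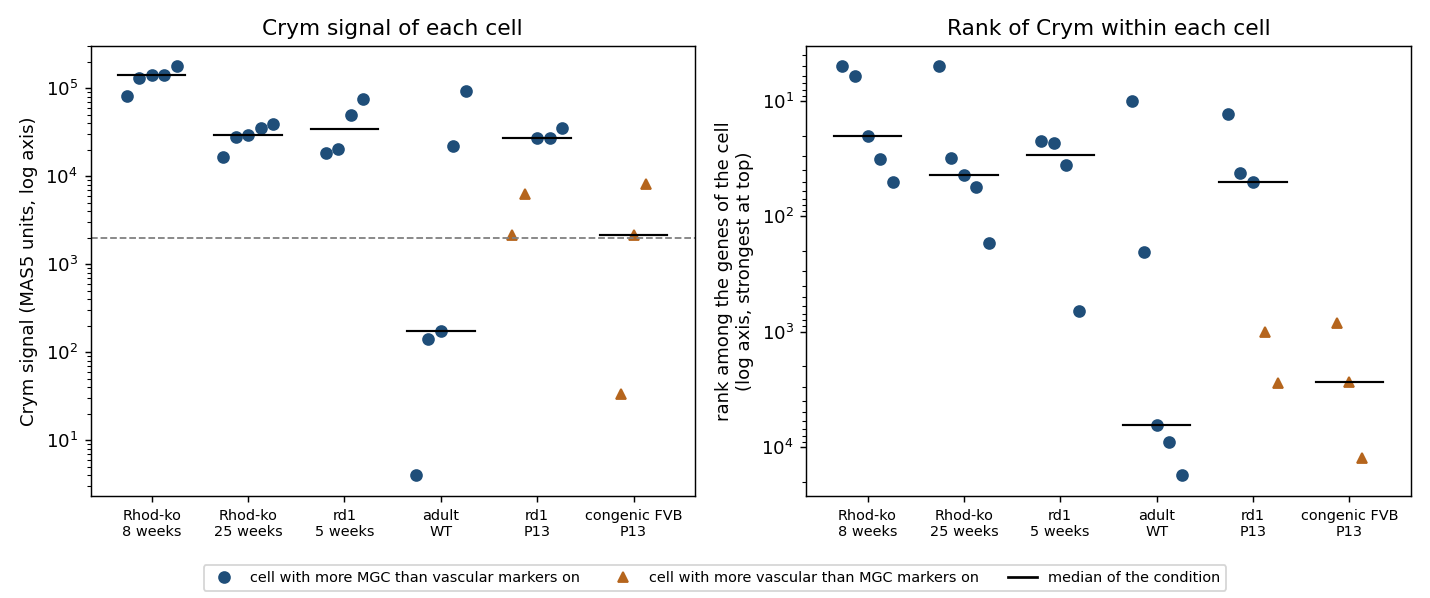
Crym signal of each of the 27 cells in MAS5 units on a log axis (left) and the rank of Crym among the genes of the same cell on a log axis with the strongest signal at the top (right). Points are cells, short bars are medians of a condition, triangles are cells with more vascular than MGC markers on, and the dashed line is the signal of 2000. The 3 adult WT cells at 4 to 175.7 lie apart from all others but the congenic FVB cell at 34.

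Set by median, Crym was highest in Rhod-ko at 8 weeks (141246), then in rd1 at 5 weeks (34806), Rhod-ko at 25 weeks (29211), rd1 at P13 (26889), congenic FVB at P13 (2127.8) and adult WT (175.7). Only the cells of Rhod-ko at 8 weeks did not overlap with the next condition in this order, while every other pair of neighbours overlapped. That gap was not kept by the other scalings. The lowest 8-week cell had 42938.5 after quantile normalization and 108653 after scaling to the 90th percentile. The strongest rd1 cell at 5 weeks had 61114 and 169074. The share of all genes with such a gap was not taken. The difference between group medians was taken on log2 signals floored at 1000 and called higher or lower at 1 or more (2-fold). With the 4 cells of rd1 at 5 weeks, the median log2 signal is the mean of the 2 middle log2 values, so a difference there is not the log2 ratio of the printed signal medians. The adult WT median lay under the floor, so the differences are lower bounds.

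The Crym median was at least 7.14 log2 units higher in Rhod-ko at 8 weeks than in adult WT, where 6.17% of all genes were at least 2-fold higher. All 5 Rhod-ko cells lay above the adult WT median, and 4 of 5 lay above the strongest adult WT cell, MG3. The Crym median was at least 4.87 log2 units higher in Rhod-ko at 25 weeks (7.9% of all genes higher) and at least 4.98 higher in rd1 at 5 weeks (6.35% of all genes higher). At both of these stages no cell exceeded MG3. The order against the strongest adult WT cell changed with the scale. After quantile normalization that cell had 81530, above the 8-week median of 61114, and the 25-week cells reached 101281. After scaling to the 90th percentile it had 138841, and rd1 at 5 weeks reached 169074. These medians rested on which adult WT cells were drawn: on leaving out any 1 of MG1, MG16 and MG22, the difference was 4.92 for Rhod-ko at 8 weeks, 2.64 for Rhod-ko at 25 weeks and 2.76 for rd1 at 5 weeks.

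Between the ages of the Rhod-ko model, all 5 cells at 25 weeks (16581 to 39687) had less Crym signal than any cell at 8 weeks (82583 to 176966). Of all genes, 0.896% were at least 2-fold lower at 25 weeks with no overlap. This gap depended on the scale. It stayed after scaling to the 90th percentile, with 12605 to 31848 at 25 weeks and 108653 to 245696 at 8 weeks. After quantile normalization the cells ran between 24075 and 101281 at 25 weeks and between 42938 and 92833 at 8 weeks, and so overlapped. The place of the Crym signal on its own array, ranked over 18194 genes, overlapped as well, at ranks 5 to 171 at 25 weeks and 5 to 50 at 8 weeks.

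The libraries at 8 weeks also differed from those of adult WT in makeup. Of 12 rod markers, 1 to 7 were on in a cell of Rhod-ko at 8 weeks, against 0 to 2 in adult WT. At P13 it was 6 to 8 in rd1 and 5 to 9 in congenic FVB. At 8 weeks 5 rod markers (Sag, Gnat1, Pde6g, Rcvrn and Rom1) were at least 2-fold higher than in adult WT and 0 lower, against 6.17% and 5.12% of all genes. Of the 17 MGC markers, 4 were higher and 9 lower, with a median difference of -1.52, although 12 to 16 were on in each cell of both conditions. All 17 had a median of at least 1000 in either group, and of all such genes 31.1% were higher and 25.8% lower. In Rhod-ko at 25 weeks 4 MGC markers were higher and 7 lower (median -0.82), against 38% and 17.8% of such genes. Of the summed signal, the 100 strongest genes held 25.8 to 35.1% in Rhod-ko at 8 weeks and 11.9 to 13.2% in Rhod-ko at 25 weeks, against 15.5 to 21.5% in adult WT. The ratio of the Gapdh 3′ to 5′ probe sets, a sign of how far cDNA reached, was 3.95 to 18.2 in Rhod-ko at 8 weeks, against 0.554 to 4.06 in adult WT. Within adult WT it was 4.06 in MG3 and 1.47 in MG15, the cells with Crym on, and at most 0.787 in the other cells. Over the 27 cells, which share conditions, the Spearman rho of Crym was 0.51 with this ratio and 0.50 with the share of the 100 strongest genes. The part of these features in the Crym signals was not tested.

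The spread of Crym among adult WT cells was wide beside that of other genes. Crym was chosen with this spread known, so its place among genes is a description only. The range over the 5 cells was 6.53 log2 units on floored signals, against a median of 3.15 over the 5926 genes on in at least 1 adult WT cell. Only 12 of those genes, Crym included, had as wide a range. The genes were not matched for level. For a gene with a cell under the floor, the floored range is set by the strongest cell alone. For Crym that cell was MG3, where it ranked 10 among the genes. The range within the other conditions was 1.10 in Rhod-ko at 8 weeks, 1.26 in Rhod-ko at 25 weeks and 2.02 in rd1 at 5 weeks. It was 4.02 in rd1 at P13 and 3.04 in congenic FVB at P13. The rd1 range at P13 spans both marker classes. The 3 rd1 cells with more MGC markers had 26889 to 34943, and the 2 with more vascular markers had 2150.5 and 6224.6. All 3 congenic FVB cells had more vascular markers. Adult WT arrays were also the least alike as a whole. The Pearson r between arrays of a condition was 0.31 to 0.47 in adult WT. It was 0.57 to 0.65 in Rhod-ko at 8 weeks, 0.54 to 0.61 at 25 weeks and 0.54 to 0.71 in rd1 at P13. It was 0.62 to 0.69 in congenic FVB at P13 and 0.49 to 0.99 in rd1 at 5 weeks. The value of 0.99 is that of arrays A5 and A6. The part of this scatter in the Crym range was not tested.

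A patchy gene was common in adult WT, where 31.3% of all genes were on in some but not all of the 5 cells. Most genes, 12268, were on in no adult WT cell. Of the 5926 on in at least 1, only 234 (3.95%) were on in all 5. Crym was among 219 genes on in MG15 and MG3 alone. These are 14% of the 1559 genes on in exactly 2 adult WT cells, and the other 9 pairs of cells held 78 to 211 genes each. All 5 adult WT cells had 12 or more MGC markers on.

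At P13 the Crym median was 3.66 log2 units higher in rd1 than in congenic FVB, where 4.79% of all genes were at least 2-fold higher. The cell ranges overlapped, and the marker class of the cells moved with the difference. The 3 rd1 cells with more MGC than vascular markers had 26889 to 34943. The 2 rd1 cells with more vascular markers had 2150.5 and 6224.6, within the range of the congenic FVB cells (34 to 8202.8), all 3 of which had more vascular markers too. No congenic FVB cell with more MGC markers was there to compare, so the rd1 genotype and marker class cannot be told apart. Across all conditions, the 17 cells outside adult WT with more MGC markers were all on for Crym, at 16581 or above.

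Thra encodes the receptor that predominates in brain, and it was on in 21 of 27 cells (77.8%, interval 57.7 to 91.4%), while 2.85% of all genes were on in as many cells. In Rhod-ko at 8 weeks Thra had 7938.7, 8003.7, 5229.4, 7667.7 and 9276.6 in cells 2, 1, 3, 7 and 8. In Rhod-ko at 25 weeks it had 22541, 11197, 7370.3, 5302.3 and 14366 in cells A1 to A5. All 10 Rhod-ko cells were thus on, within a narrow range at 8 weeks.

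In rd1 at 5 weeks Thra had 13345, 15790.3, 1563.1 and 8925.2 in cells A1, A5/A6, B1 and A8, of which 3 were on. In adult WT it had 23043 in MG16, 10096 in MG1, 4648.6 in MG3, 1645.6 in MG22 and 129 in MG15, so that 3 of 5 were on and the cells of the degenerating retinas lay inside the adult WT range. At P13 it had 8434, 22537, 1051.2, 12952 and 4580.1 in rd1 cells B4, A4, A1, B3 and B1, against 1218.4, 7267.8 and 56.5 in congenic FVB cells A3, A4 and A5.

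The Thra median was 0.77 log2 units higher in Rhod-ko at 8 weeks than in adult WT, which is under the 2-fold rule. It was 1.27 higher in Rhod-ko at 25 weeks and 1.23 higher in rd1 at 5 weeks, with overlapping cells in each. Without MG22 or MG15 these differences were 0.71 and 0.67, under the rule, and without cells A1 or A5 at 25 weeks or cells A1 or A5/A6 of rd1 they were 0.97 and 0.94. Scaling to the 90th percentile gave 0.28 at 25 weeks, quantile normalization gave 0.63 for rd1, and without MG1 or MG16 the difference at 8 weeks was 1.52, over the rule. At P13 the Thra median was 2.79 higher in rd1 than in congenic FVB. The marker class moved with it here as well, since the 3 rd1 cells with more MGC markers had 8434 to 22537 and the 5 cells with more vascular markers had 56.5 to 7267.8.

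The on calls of Thra came almost wholly from 1 of its 3 probe sets. Probe set 1454675_at gave the highest Thra signal in 24 of 27 cells and was on in all 21. Probe set 1426997_at reached at most 1645.6, in MG22, and 1443952_at was on in 1 cell alone, A4 of Rhod-ko at 25 weeks, at 4474.9. Thra overlaps the clock repressor gene Nr1d1 in the RefSeq mouse annotation, and double-stranded amplified cDNA does not keep the strand. Nr1d1 was on in 11 cells, all of which had Thra on, and 10 further cells had Thra on with Nr1d1 under 2000. In 5 of those 10 the Nr1d1 signal was under 500, among them cell A4 of rd1 at P13, where Thra had 22537. The Spearman rho of Thra and Nr1d1 over the 27 cells was 0.42. Whether cDNA of Nr1d1 added to the Thra signals was not tested, and these counts do not decide it.

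Thrb, the receptor of cone opsin patterning, was on in 0 of 27 cells (exact interval 0 to 12.8%, counting error only, with the conditions pooled). The signals of its single probe set, 1422202_at, ran between 3.5 and 1332.5. The highest, at 1332.5, was in cell 8 of Rhod-ko at 8 weeks, and the condition medians lay between 10.2 and 604.4. In the 5 conditions other than Rhod-ko at 8 weeks the strongest cell reached 664.5, in adult WT. Every condition's median lay under the floor of 1000, so no difference was given. Since probe sets of Thra differed so widely within the same cells, a low signal of 1 Thrb probe set says that Thrb RNA was not detectable with it, not that the RNA was absent.

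**Figure D2:**
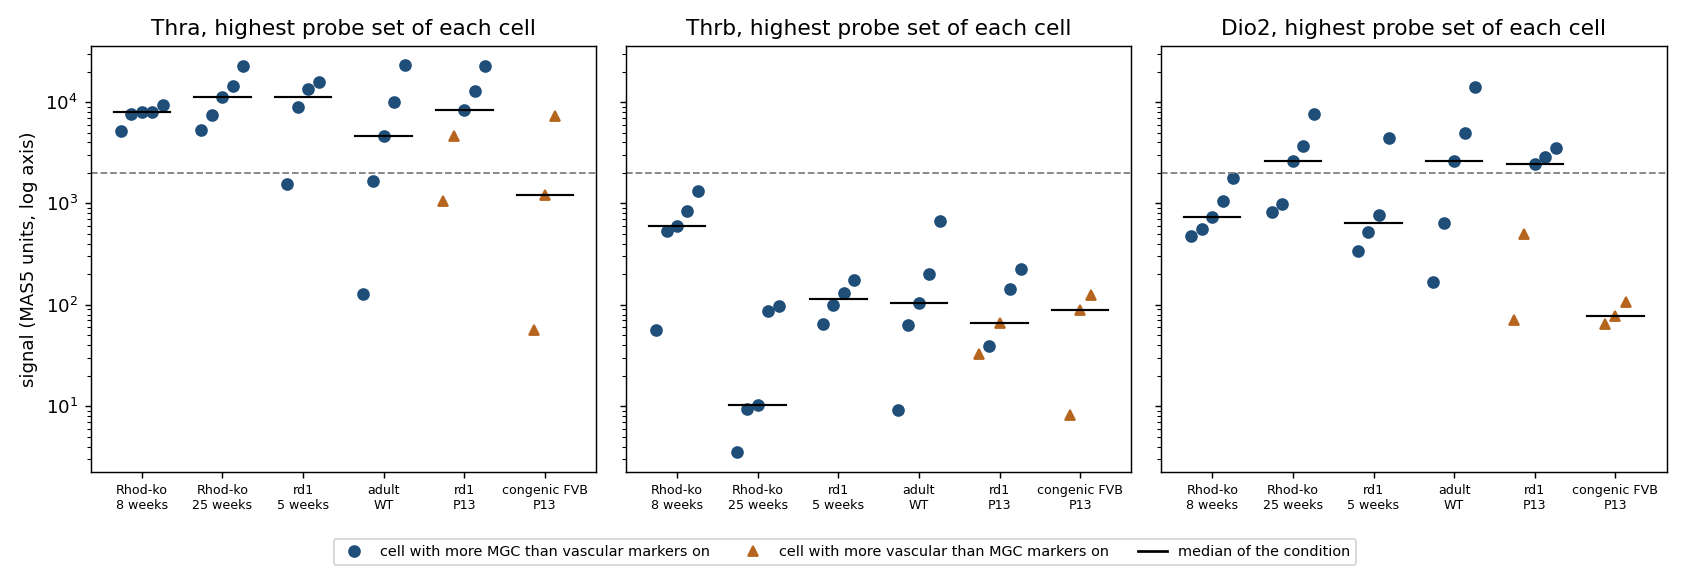
Signal of Thra, Thrb and Dio2 in each of the 27 cells, as the highest probe set of the cell, in MAS5 units on a log axis. Points are cells, short bars are medians of a condition, triangles are cells with more vascular than MGC markers on, and the dashed line is the signal of 2000. Thra was on in 21 cells, Dio2 in 10 and Thrb in none of the 27.

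Dio2, the enzyme that makes the active hormone, was on in 10 of 27 cells (37%, interval 19.4 to 57.6%), and 14.1% of all genes were on in as many cells. In Rhod-ko at 8 weeks no cell was on, with 473.9 to 1790.4 (interval for 0 of 5 cells 0 to 52.2%). In Rhod-ko at 25 weeks cells A2, A3 and A5 were on at 2631.4, 3654.2 and 7572.9, and in rd1 at 5 weeks cell A8 alone was on at 4434.6. In adult WT cells MG1, MG15 and MG22 were on at 2596.9, 4947.9 and 14232, while MG3 and MG16 had 635.8 and 166.2.

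The Dio2 median of Rhod-ko at 8 weeks lay under the floor, which puts the difference from adult WT at -1.38 log2 units or below, and 5.12% of all genes were at least 2-fold lower. The same bound held for rd1 at 5 weeks (4.25% of all genes lower), since its median of 644.9 was under the floor too. The cells overlapped in both comparisons, and without MG22 or MG15 either difference was -0.69, under the 2-fold rule. In Rhod-ko at 25 weeks the median differed from adult WT by 0.02, but by -2.02 after scaling to the 90th percentile and by 1.40 with 1 fixed probe set for each gene.

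At P13 Dio2 was on in rd1 cells B4, A4 and B3 at 2871, 3536.3 and 2432.7, and at 501.2 and 70.7 in rd1 cells A1 and B1, against 64.2 to 107.1 in the congenic FVB cells. The median was at least 1.28 log2 units higher in rd1, but 0.64 without B4 or without A4 and 0.76 without B3. The 3 cells on were the 3 rd1 cells with more MGC markers, and Dio2 was on in 0 of the 5 cells with more vascular markers.

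All 3 Dio2 probe sets were under 2000 in 17 cells, and among the 10 cells on only 1 was on in more than 1 probe set. Probe set 1418937_at was on in 8 cells and 1426081_a_at in 3, with cell A3 of Rhod-ko at 25 weeks on in both, at 3137.8 and 3654.2. In MG22 probe set 1426081_a_at had 14232 while 1418937_at had 66.9, so the on call of MG22 rested on 1 probe set. Probe set 1418938_at was on in no cell and peaked at 1790.4 in cell 7 of Rhod-ko at 8 weeks, the cell with microglia markers. With 1 fixed probe set for each gene, Dio2 was on in 8 cells, and its difference in Rhod-ko at 8 weeks and in rd1 at 5 weeks became 0.

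The genes were combined differently in each adult WT cell. MG3 had Crym and Thra on, MG15 had Crym and Dio2, MG1 had Dio2 and Thra, MG22 had Dio2 alone and MG16 had Thra alone. Over all 27 cells, Crym and Thra were on together in 19 cells, and Dio2 was on as well in 7 of these. Crym was on without Thra in 4 cells and Thra without Crym in 2, MG1 and MG16. Congenic FVB cell A5 had none of the genes on. As a description over 27 cells, the Spearman rho of Crym was 0.21 with Thra and 0.22 with Dio2.

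The wider hormone pathway was followed in 42 other measured genes, a list drawn up with earlier results of these data known. Of these, 7 were at least 2-fold higher and 3 lower in Rhod-ko at 8 weeks, against 6.17% and 5.12% of all genes. In Rhod-ko at 25 weeks 12 were higher and 1 lower, against 7.9% and 3.7% of all genes. In rd1 at 5 weeks 11 were higher and 3 lower, against 6.35% and 4.25%. At P13 2 were higher in rd1 and 7 lower, against 4.79% and 6.41%. The median difference of the list and of all genes was 0 in every comparison, with 20 to 27 of the 42 genes under the floor in both groups.

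Since most genes were under the floor in both groups, the same counts were read among genes with a median of at least 1000 in either. Of the 42 genes, 15 in Rhod-ko at 8 weeks, 21 in Rhod-ko at 25 weeks, 18 in rd1 at 5 weeks and 22 at P13 had such a median, and the counts above are out of these. Of all such genes, 31.1% were higher and 25.8% lower in Rhod-ko at 8 weeks, 38% higher and 17.8% lower in Rhod-ko at 25 weeks, and 32.5% higher and 21.7% lower in rd1 at 5 weeks. At P13 17.5% were higher and 23.4% lower in rd1. Of all genes called in Rhod-ko at 25 weeks, 68.1% were higher, and this share was 56.4% after quantile normalization and 42.2% after scaling to the 90th percentile. Under that last scaling 8 of the 15 hormone genes called at 25 weeks (Slc7a8, Slc3a2, Thra, Rxra, Rxrb, Tbl1x, Klf9 and Idh1) were under 2-fold, with the same sign.

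Among the transporters, the one on in the most cells was Slc3a2, the heavy chain shared by the amino acid transporters that also carry thyroid hormone. It was on in all 22 cells outside adult WT and in 3 of 5 adult WT cells. Its median was 51819 in Rhod-ko at 8 weeks, 18624 in Rhod-ko at 25 weeks and 26140 in rd1 at 5 weeks, against 7231 in adult WT, which is 2.84, 1.36 and 1.77 log2 units higher. At 25 weeks the difference was 0.36 after scaling to the 90th percentile. The light chain gene Slc7a8 was on in 3 of 5 cells of Rhod-ko at 25 weeks and in no other condition. Slc7a5, another light chain gene, was on in 4 of 5 rd1 and 3 of 3 congenic FVB cells at P13, with medians of 7234.9 in rd1 and 12051 in congenic FVB. Ttr, which encodes the carrier protein transthyretin, was on in 4 of 5 cells of Rhod-ko at 8 weeks and 0 of 5 in adult WT, at least 1.13 higher.

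The transporter Slco1c1, a thyroxine carrier of brain capillaries in mice, was on in 3 of 4 cells of rd1 at 5 weeks, with a median of 4291.4 against 96.5 in adult WT. At P13 its median was 1425.5 in rd1 against 29510 in congenic FVB, a difference of -4.37 log2 units. The median of the organic anion transporter Slco1a4 was 13.5 in rd1 at P13, against 14759 in congenic FVB, with no overlap (0.901% of all genes were lower with no overlap). Vascular markers moved with both genes. Slco1c1 was on in 4 of 5 cells with more vascular markers and in 5 of 22 others, and Slco1a4 in 4 of 5 and in 0 of 22. All 5 cells with more vascular markers were P13 cells, whereas most of the others were older. Slc16a10 was on in no cell.

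Around Dio2, the deiodinase gene Dio1 and Sepsecs, whose enzyme makes selenocysteine on its tRNA, were on in no cell. Secisbp2, which lets selenocysteine be built into deiodinases, had medians of 166.3 in Rhod-ko at 8 weeks, 2225.4 in Rhod-ko at 25 weeks and 261.2 in rd1 at 5 weeks, against 5256.4 in adult WT. The difference was -2.39 log2 units or below in Rhod-ko at 8 weeks and in rd1 at 5 weeks, and -1.24 in Rhod-ko at 25 weeks. Dio2 and Secisbp2 were both on in 4 cells, Dio2 alone in 6 and Secisbp2 alone in 3. Wsb1, whose protein marks the Dio2 enzyme for breakdown, differed by -2.77 or below in Rhod-ko at 8 weeks and in rd1 at 5 weeks, but had a median of 12797 in Rhod-ko at 25 weeks against 6813.4 in adult WT, on in 5 of 5 cells. Marchf6, a ubiquitin ligase of the endoplasmic reticulum that acts on the same enzyme, was at least 2.80 higher in rd1 at 5 weeks (6970.3, against 720.7 in adult WT) and at least 1.48 higher in Rhod-ko at 25 weeks. Usp20, a deubiquitinase that rescues the enzyme, was on in 3 of 5 cells of Rhod-ko at 8 weeks at 906.3 to 15683, against 65.4 to 643.5 in adult WT, where it was on in 0 of 5. The lowest Rhod-ko signal was itself under the floor, so the gap between the ranges is not a measured one (0.907% of all genes were higher with no overlap of unfloored signals). Usp33, a related deubiquitinase, differed by -1.03 or below at P13, but was under 2-fold with either of the other scalings.

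Of the receptor partners, Rxra was at least 3.01 log2 units higher in Rhod-ko at 8 weeks and at least 1.21 higher in Rhod-ko at 25 weeks, where Rxrb was at least 1.08 higher too, and at 25 weeks both were under 2-fold with either of the other scalings. Rxrg and the coactivator gene Ncoa3 were on in no cell. The corepressor enzyme Hdac3 had 1852 to 4998 in rd1 at 5 weeks, against 8 to 753.3 in adult WT, and so did not overlap (0.346% of all genes were higher with no overlap). The coactivator Ncoa1, on in all 5 adult WT cells, had a median 1.51 higher in rd1 at 5 weeks. At P13 Ncoa1 was at least 3.32 higher in rd1 than in congenic FVB, and Ncoa2 had 2457.9 to 6203.6 in rd1, above all congenic FVB cells, where the median was 771.2 and 0.55% of all genes were higher with no overlap. All 5 rd1 cells were on for Ncoa2, those with more vascular markers among them, and Ncoa1 was on in 3 of 5 cells with more vascular markers and in 19 of 22 others. The coactivator Crebbp differed by -1.17 in Rhod-ko at 8 weeks and by -1.56 in rd1 at 5 weeks, with overlapping cells, and by -0.72 at 8 weeks after quantile normalization. The mediator subunit gene Med1 was on in 3 of 5 rd1 cells at P13.

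Of 8 measured genes known to respond to the hormone, 2 were higher in Rhod-ko at 8 weeks, 3 in Rhod-ko at 25 weeks and 2 in rd1 at 5 weeks, with 0 lower in each. Of all genes, 6.17%, 7.9% and 6.35% were higher and 5.12%, 3.7% and 4.25% lower, in the same order. Only 4, 3 and 3 of the 8 had a median of at least 1000 in either group. Of all such genes, 31.1%, 38% and 32.5% were higher and 25.8%, 17.8% and 21.7% lower. At P13 0 of the 8 were higher and 1, Fasn, was lower in rd1, against 4.79% and 6.41% of all genes. Klf9 was 2.28 log2 units higher in Rhod-ko at 25 weeks and 3.65 higher in rd1 at 5 weeks, with medians of 6155.1 and 15921 against 1271.2 in adult WT. The difference at 25 weeks was 0.29 after scaling to the 90th percentile. Its median of 2312.7 in Rhod-ko at 8 weeks was within 2-fold of adult WT. Thrsp, a regulator of lipid synthesis, was at least 2.69 higher in Rhod-ko at 8 weeks, 2.70 in Rhod-ko at 25 weeks and 2.06 in rd1 at 5 weeks. Fasn, the fatty acid synthase, was at least 4.14 higher in Rhod-ko at 8 weeks, with a median of 17604 against 671.6 in adult WT, and at least 1.77 higher in Rhod-ko at 25 weeks. At P13 the Fasn difference was -1.29 or below, with a median of 799.8 in rd1 against 2452 in congenic FVB. Mbp, Nrgn and Rasd2 were each on in 1 cell of the 27 and differed in no comparison by the 2-fold rule, and Hr and Me1 were on in no cell.

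Besides Crym, Aldh1a1 encodes a cytosolic protein able to bind the hormone, although it is better known as a retinal dehydrogenase. Its median was 22819 in Rhod-ko at 8 weeks, 25875 in Rhod-ko at 25 weeks and 27595 in rd1 at 5 weeks, against 3044.7 in adult WT, or 2.91, 3.09 and 2.22 log2 units higher. It was on in 0 of 5 cells with more vascular markers and in 16 of 22 others. All 5 of the former were P13 cells, whereas most of the others were older. At P13 Aldh1a1 was on in only 1 of 5 rd1 cells (median 21.1) and in 0 of 3 congenic FVB cells. Age and marker class thus cannot be told apart in this count. Of the genes for NADPH-making enzymes, Pgd was at least 2.90 and 3.18 log2 units higher in Rhod-ko at 25 weeks and in rd1 at 5 weeks, and Idh1 was 1.69 and 2.68 higher (0.63 at 25 weeks after scaling to the 90th percentile). Neither passed the 2-fold rule in Rhod-ko at 8 weeks, where Crym had its highest signals.

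**Figure D3:**
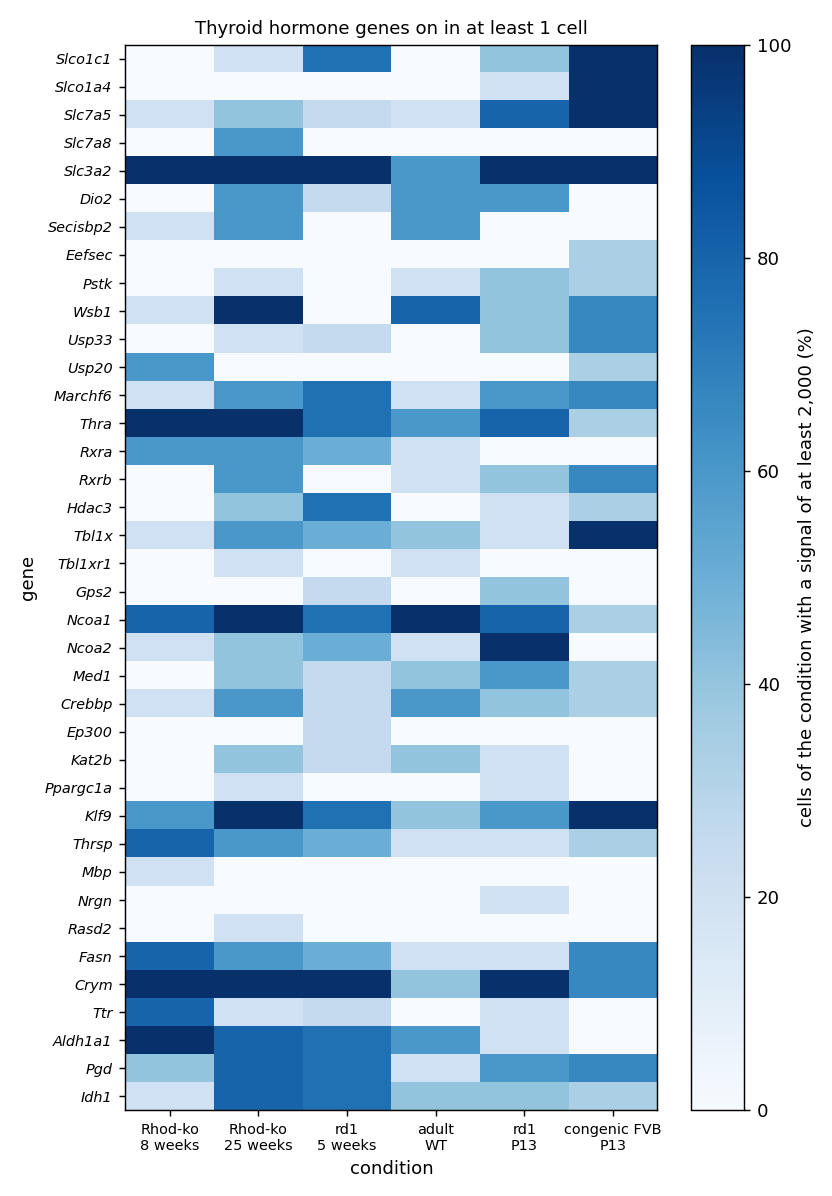
Share of the cells of each condition with a signal of at least 2000 (colour, in percent) for the thyroid hormone genes on in at least 1 cell (rows) in the 6 conditions (columns). Crym and Slc3a2 were on in all cells of Rhod-ko at both ages and of rd1 at both ages, and Slco1c1 and Slco1a4 in all 3 congenic FVB cells.

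The genes with the pattern most like that of Crym were found by Spearman rho over the 27 cells, on log2 signals floored at 100, among 5225 genes on in at least 5 cells. They were Mt1 (0.89), Rlbp1 (0.85), Pdpn (0.83), Slc25a3 (0.82), Pbxip1 (0.81), Ckb (0.78), Smdt1 (0.78), Rax (0.76), Fxyd1 (0.76) and Mt2 (0.75). Mt1 and Mt2 are metallothioneins, Rlbp1 is the retinaldehyde-binding protein of MGCs and pigment epithelium, Pdpn is a membrane glycoprotein, and Rax is a transcription factor of the eye field.

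The adult WT cells with Crym on were also those on for Rlbp1, itself 1 of the 17 MGC markers, which had 149346 in MG3 and 109338 in MG15 but 22.2, 24.5 and 146.7 in MG1, MG16 and MG22. Pdpn had 17062 in MG3 and 31963 in MG15, and 19, 157.1 and 46 in MG1, MG16 and MG22. Mt1 had 50199 in MG3 and 4614.2 in MG15, and 79.8, 13.2 and 131.8 in the same other cells. Other genes of the list did not follow Crym in adult WT: Mt2 was highest in MG1, at 17767, against 4361.9 in MG3 and 1237.1 in MG15, Ckb had 44534 in MG1, and Smdt1 had 16314 in MG1 and 761.5 in MG15. Rlbp1 and Pdpn were also on in all 17 cells outside adult WT with more MGC markers, at 27908 to 176910 for Rlbp1 and 6932.9 to 125596 for Pdpn. The highest Mt1 signal of any cell was 659741, in cell 8 of Rhod-ko at 8 weeks, which had the lowest Crym of its condition.

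The genes most opposite to Crym were Rab18 (-0.77), Caprin1 (-0.77), Ssr3 (-0.74), Crk (-0.72) and Epas1 (-0.72). Rab18, a small GTPase, had 370.2 in MG3 and 2149.1 in MG15, but 16327, 12639 and 11588 in MG1, MG16 and MG22. The list was not stable: of the 10 most alike genes, 9 stayed with a floor of 1000, 6 without the adult WT cells, 4 without the cells with more vascular markers and 3 after quantile normalization, where Rlbp1 ranked 101 with a rho of 0.54. Mt1 stayed among the 10 in each of these and with Pearson r.

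**Figure D4:**
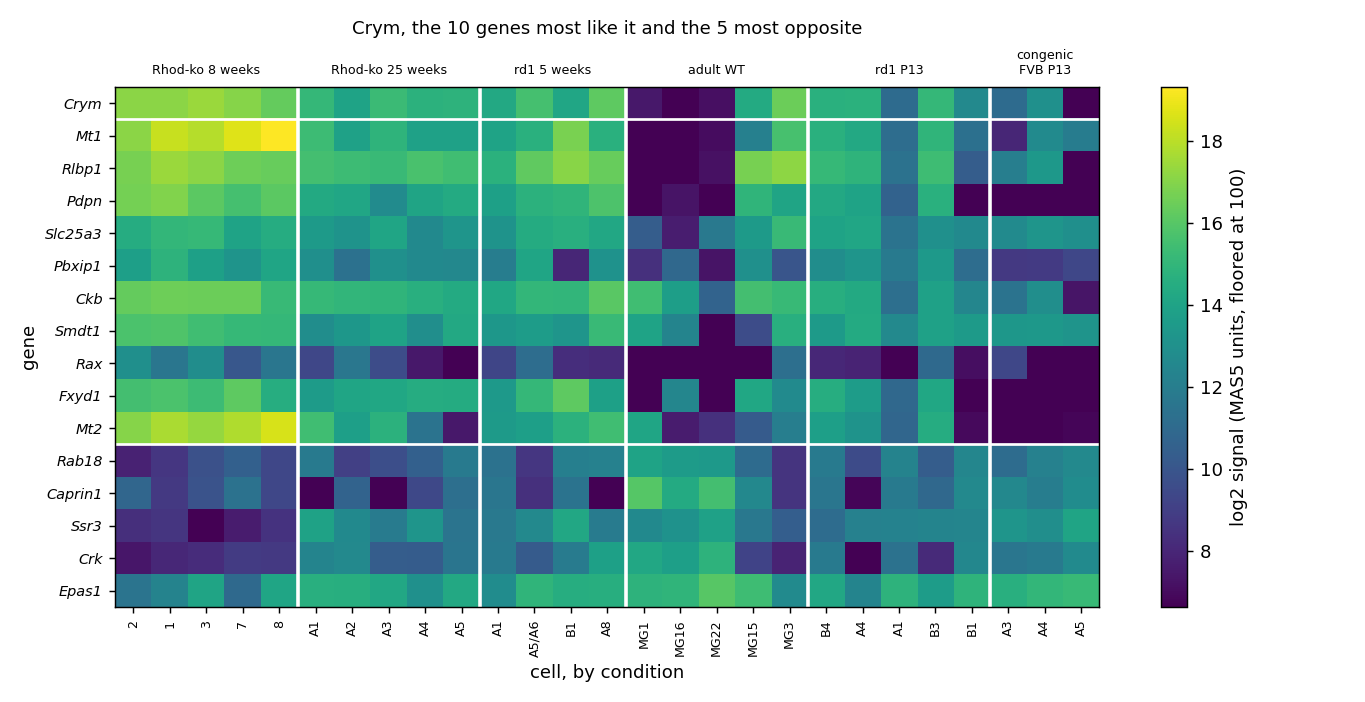
Signal of Crym, of the 10 genes with the highest rho with it and of the 5 with the lowest (rows) in the 27 cells (columns, grouped by condition), as log2 MAS5 units floored at 100 (colour). Adult WT cells MG1, MG16 and MG22 are dark for Crym, Mt1, Rlbp1 and Pdpn, where MG15 and MG3 are bright.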

How the data were processed

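The authors primed reverse transcription of each cell's RNA with oligo dT, tailed the cDNA with poly(A), amplified it by 35 cycles of PCR, hybridized it to Affymetrix mouse genome arrays and processed the scans with MAS 5.0. The deposited values are signal intensities on a linear scale, with a 2% trimmed mean of 500.0 on all 28 arrays. Probe sets with 1 symbol in the platform annotation (34958 of 45101) gave 18194 genes, each taken as its highest probe set in a cell, as the study's methods state. Probe sets with several symbols (932) or none (9211) were left out. Detection calls were not used, and the number of cells limits the precision.

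A gene was on at 2000 or more. Group medians were compared on log2 intensities floored at 1000, with 2-fold as the rule of size, and shares carry exact binomial intervals (95%). The genes described and all lists were chosen with earlier results of these data known. Named genes were Crym, Dio2, Thra and Thrb, those of the hormone lists that were on in at least 50% of the cells of a condition or differed at least 2-fold, genes on in no cell, the 10 genes most like Crym and the 5 most opposite, Nr1d1, and a few marker genes. Some genes of the hormone lists are not reported here. The steps were tested on simulated data. Alternatives were 1 probe set per gene, 2 other scalings, other floors and thresholds, means, another control, A5 and A6 as separate cells, and leaving out cells. SciPy 1.17.1, NumPy 2.4.6, pandas 2.3.3 and matplotlib 3.10.9 were used under Python 3.11.15.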

Additional observations from a re-analysis of the deposited data

How the results depend on the processing

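No paired analysis was possible because no animal is named for any cell and no test was run. No difference called in the report changed sign, for Crym, Dio2, Thra and Thrb under any alternative or for the called hormone genes under the other scalings. With group means, the Crym difference was 4.84 for Rhod-ko at 8 weeks, 2.64 at 25 weeks, 2.90 for rd1 at 5 weeks and 2.31 at P13. Dio2 differed by 0 (1 probe set per gene) and -2.75 (90th percentile scaling) in Rhod-ko at 8 weeks, by -2.02 (90th percentile scaling) and 1.40 (1 probe set per gene) at 25 weeks, where the difference of 0.02 was not called, and by 2.28 and 0.28 at P13 with floors of 500 and 2000. A floor of 2000 put Dio2 at -0.38 in Rhod-ko at 8 weeks and in rd1 at 5 weeks. Thrb differed by 0.27 in Rhod-ko at 8 weeks with a floor of 500. Thra differed by 3.16 for rd1 at 5 weeks against congenic FVB at P13, whose cells were younger and all had more vascular than MGC markers on. The count of the 46 measured hormone genes, Crym, Dio2, Thra and Thrb included, at least 2-fold apart was 15 in Rhod-ko at 25 weeks, but 8 with 90th percentile scaling, 9 with a floor of 2000 and 9 with means, and at P13 it was 12, but 6 with a floor of 2000. Dio2 was on in 20 cells at a threshold of 500 and in 1 at 10000, Thra in 9 at 10000, and Thrb in 5 at 500 and 1 at 1000. Of the 10 genes most like Crym, 4 stayed with Pearson r, 4 without the cells with more vascular markers, 6 without adult WT and 3 after quantile normalization.

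Leaving out each cell gave Crym differences of 4.92 to 7.14 for Rhod-ko at 8 weeks, 2.64 to 5.00 at 25 weeks, 2.76 to 5.63 for rd1 at 5 weeks and 2.60 to 4.20 at P13, and a Crym range in adult WT of 4.45 to 6.53. The Dio2 difference at P13 ran between 0.64 and 1.40. Dropping the cells with more vascular markers could not be run at P13, where no congenic FVB cell remained. Signals under about 1000 have no usable order, and 1 array per cell gives no estimate of measurement error beyond A5 and A6.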
